A study of Mus musculus with 21 samples.

Results

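Ly-6B+ macrophages that remained in the peritoneal cavity 168 h after an injection of zymosan were set against Ly-6B+ monocytes from the bone marrow of naive mice, to describe what both kinds of Ly-6B+ cell share and where they differ. The members were defined by their labels, with earlier results of these data known. They are 6 of the 21 arrays of the series, 3 for each group. All mice were female C57BL/6 of 7 to 8 weeks. The macrophages were sorted from peritoneal lavage as Ly-6B+ cells with medium to high F4/80, after zymosan, a yeast cell wall preparation, had been given into the cavity. The bone marrow monocytes came from mice that got no zymosan and were sorted as Ly-6B+ Ly-6G- cells after the bones were flushed and red cells were lysed. The groups therefore differ in tissue, in zymosan and in the way the cells were obtained, and these cannot be told apart. Ly-6B- macrophages of the same 168 h and resident macrophages of naive mice, 3 arrays each, served to show where the Ly-6B+ macrophages stood apart from other macrophages of the cavity. The labels call the arrays biological replicates and do not say whether animals were pooled, so the spread may in part be technical.

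Monocytes are made in the bone marrow from dividing progenitors that also give rise to neutrophils. Classical monocytes carry the chemokine receptor CCR2, leave the marrow and enter inflamed tissue, where they can become macrophages or dendritic-like cells. Resident macrophages of the peritoneum are a separate, long-lived population that depends on the transcription factor GATA6 and takes up dying cells. Zymosan is bound by the lectin receptor dectin-1 and by toll-like receptors and starts a peritonitis that resolves by itself. Ly-6B is a surface antigen of neutrophils and inflammatory monocytes that is lost from most mature macrophages.

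Values are MAS5 signals, the linear brightness that Affymetrix software gives each probe set. Changes are log2 fold changes of signal plus 15, written as Ly-6B+ macrophages minus bone marrow monocytes, with the standard error (SE) and the adjusted p of limma. A gene was called when the Benjamini-Hochberg adjusted p was under 0.05 and the change was at least 1 in size. A difference was held within 2-fold when its 95% confidence interval lay wholly between -1 and 1. Fewer cells of a type and less RNA per cell cannot be told apart in sorted bulk samples.

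The median signal was 79.2 to 93 in the macrophage arrays and 69.4 to 84.3 in the bone marrow arrays. The ratio of the 3′ to the 5′ probe sets of Gapdh, which rises as RNA degrades, was 2.17 to 2.89 and 2.17 to 2.84. Arrays correlated at r of 0.974 to 0.977 within the macrophages and 0.969 to 0.981 within bone marrow, and at 0.853 to 0.882 between the groups, across genes, which are not independent replicates. Bone marrow replicate 3 stood apart in granule genes. Its signal of S100a9, a calcium-binding protein of neutrophils and monocytes, was 39150 beside 8538 and 5796, and that of Mpo, myeloperoxidase, was 33880 beside 19600 and 12010. Without that array 1247 genes were called higher and 844 lower.

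Of 12169 genes tested, 1244 (10.2%) were called higher in the macrophages and 918 (7.54%) lower. The difference was held within 2-fold for 6900 genes (56.7%), and 3107 genes were neither called nor held. Among 3724 genes with a mean of at least 1000 in both groups, 2885 (77.5%) were held. The 3 arrays of one group all lay above the 3 of the other for 5981 genes (49.1%). The median change over all genes tested was 0.01.

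**Figure D1:**
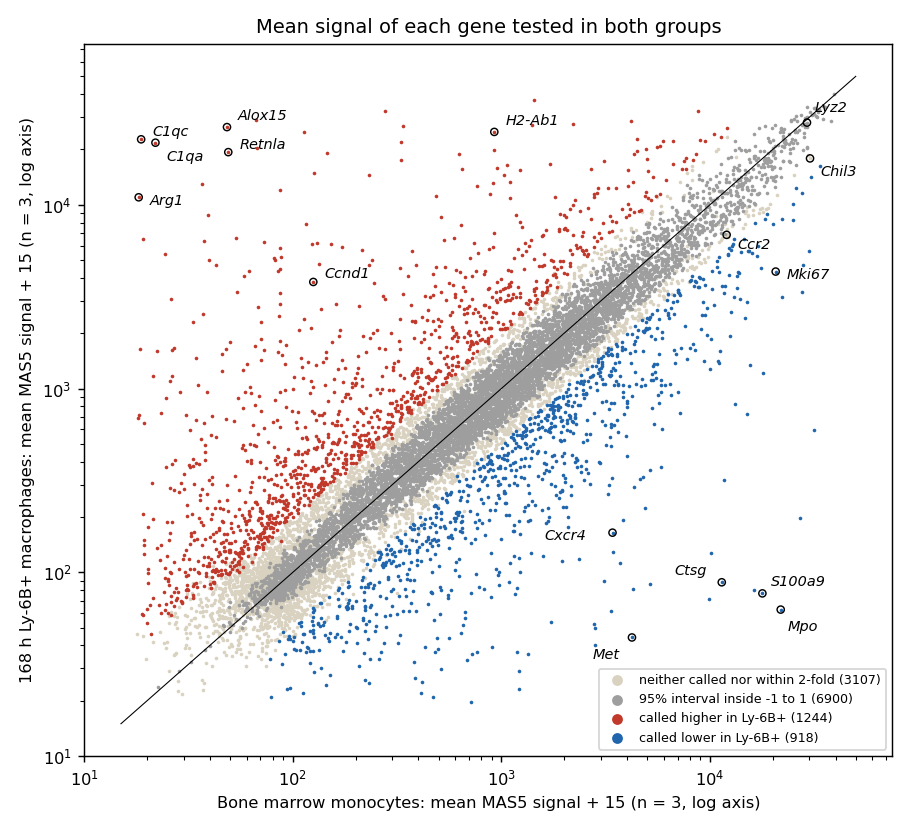
Mean MAS5 signal plus 15 of each of 12169 genes in bone marrow monocytes (x axis, log scale) and in 168 h Ly-6B+ macrophages (y axis, log scale), with 3 arrays a group and the line of equal signal. Red points are the 1244 genes called higher, blue points the 918 called lower and grey points the 6900 held within 2-fold. C1qc, Alox15 and Arg1 lie at the upper left, Mpo, S100a9 and Met at the lower right, and Lyz2 near the line.

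The markers of the label were checked first. The sort took cells with F4/80, and its gene Adgre1 measured 24050, 23630 and 21070 in the macrophages against 4927, 5064 and 3438 in bone marrow (2.37, SE 0.11, adjusted p = 8.19e-13). Itgam, the CD11b integrin chain, was 3322 ± 808 against 500.6 ± 37.0 (SD, n = 3). C1qc, a chain of the complement starter C1q that macrophages make, was 17780, 25700 and 24630 against 2.82, 4.84 and 3.57 (10.23, SE 0.29, adjusted p = 3.28e-16). Every macrophage array lay far above every bone marrow array for these genes. Ly6g and Ly6c2 were not analysed here.

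Ccr2 and Chil3 were the markers that lay near each other in both groups. Ccr2 measured 8142, 6546 and 5854 in the macrophages and 12820, 13540 and 9680 in bone marrow (-0.81, SE 0.34, 95% interval -1.51 to -0.11, adjusted p = 0.0614). The macrophage arrays were all lower, but the gene was neither called nor held within 2-fold. Other probe sets of Ccr2, which are dimmer, differed by -1.53, -1.23 and -1.54, and with the mean of its probe sets the gene was called lower at -1.28. Chil3, a chitinase-like lectin secreted by myeloid cells, was 21990, 18590 and 13030 against 27880, 28190 and 34470 (-0.78, SE 0.41, 95% interval -1.63 to 0.06, adjusted p = 0.138). Both genes set the Ly-6B+ cells apart from the Ly-6B- and the resident macrophages. Ccr2 was 6848 ± 1170 in the Ly-6B+ cells, 160.0 ± 65.4 in the Ly-6B- macrophages (5.35 higher, adjusted p = 3.34e-09) and 181.8 ± 118 in resident macrophages (5.27 higher, adjusted p = 4.34e-09). Chil3 was 17870 ± 4520, 907.5 ± 687 and 284.7 ± 67.5, a difference of 4.63 (adjusted p = 1.46e-07) from the Ly-6B- and of 5.89 (adjusted p = 6.31e-09) from the resident cells. The macrophages of 72 h had 5288 ± 2690 for Ccr2, near the Ly-6B+ cells, and 2085 ± 440 for Chil3.

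**Figure D2:**
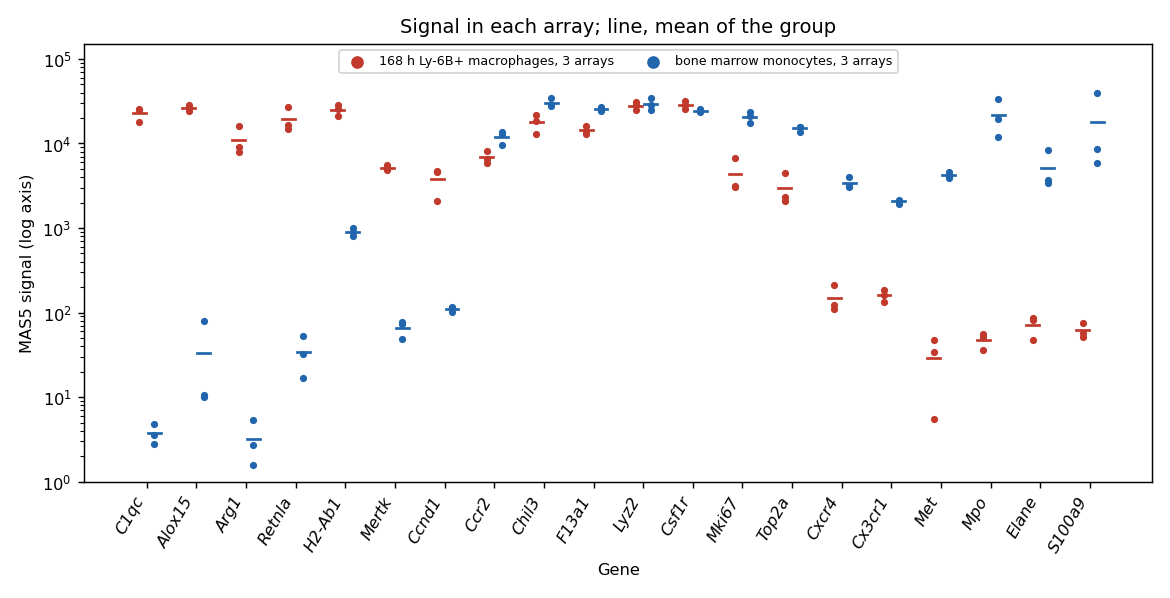
MAS5 signal (y axis, log scale) of 20 genes in each of the 3 macrophage arrays (red) and the 3 bone marrow arrays (blue), with a line at the mean of each group. C1qc to Ccnd1 lie higher in the macrophages, Lyz2 and Csf1r overlap or nearly so, Ccr2, Chil3 and F13a1 are somewhat lower, and Mki67 to S100a9 lie lower, with bone marrow replicate 3 the top point of S100a9 at 39150.

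Complement genes were among the most changed. Of 12 measured members, 9 were called higher, where 10.2% of all genes were, with a median of 3.28. C1qa, the partner chain of C1qc, was 18730, 23670 and 22880 against 4.74, 9.05 and 7.05 (9.95, SE 0.33, adjusted p = 3.34e-15), and C1qb was 24840 ± 2120 against 97.6 ± 19.0. Genes of the alternative pathway were higher too, with factor B (Cfb) at 5884 ± 1510 against 157 ± 22.6 and properdin (Cfp) at 20750 ± 3050 against 5771 ± 1170. The receptors for the complement fragments C3a and C5a rose, C3ar1 by 6.12 and C5ar1 by 3.29. Cr1l, a regulator that limits complement on the cell's own surface, was held within 2-fold at 4295 against 2816. Where a group is near the bottom of the scale, as C1qc is in bone marrow, the size of the change depends on the constant added before the logarithm. For C1qc it ran from 8.46 to 12.23 over the alternatives tried.

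Genes that mark resident peritoneal macrophages were high in the Ly-6B+ cells as well. Of 23 measured, 22 were called higher, where 10.2% of all genes were, with a median of 5.08. Apoc1, an apolipoprotein, was not called at 60.6 against 32.9. Alox15, a lipoxygenase that makes lipid mediators, measured 24060, 28330 and 26990 against 10.5, 10.04 and 79.6 (9.40, SE 0.65, adjusted p = 3.38e-10). Prg4, the lubricant proteoglycan, was 28780 ± 2340 against 51.8 ± 14.5 (8.77). Cd5l, a secreted scavenger protein of macrophages, was 20370 ± 2210 against 52.3 ± 9.85 (8.25). Ptgis, the prostacyclin synthase, was 5406 ± 1350 against 9.34 ± 2.95 (7.78). Serpinb2, an inhibitor of plasminogen activators that is no member of this list, was 8750 ± 2050 against 24.4 ± 3.36 (7.77), and Gbp2b, a guanylate-binding protein, was 13040 ± 1590 against 21.8 ± 8.04 (8.49).

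The same list separated the Ly-6B+ cells from the other macrophages in the opposite sense. Against the Ly-6B- macrophages of 168 h, 11 of its 23 genes were called lower, where 2.41% of all genes were, and 1.54% of all genes were called higher. Against naive resident macrophages, 11 were again called lower, where 2.4% of all genes were, and 1.98% were called higher. Both comparisons use the same 3 Ly-6B+ arrays. Timd4, a receptor for phosphatidylserine on dying cells, was 1375, 2141 and 1352 in the Ly-6B+ cells and 3.30, 2.05 and 5.22 in bone marrow (6.44, SE 0.34, adjusted p = 4e-12). The Ly-6B- macrophages had a mean of 16910 and the resident macrophages one of 18630. Gata6 was 1843, 2121 and 1554 against 47.5, 51.5 and 66.5 in bone marrow (4.72, SE 0.20, adjusted p = 1.37e-13), with 4365 in the Ly-6B- and 4188 in the resident cells. Garnl3, a protein with a GTPase activation domain, was 182.8 ± 83.4 against 20.4 ± 6.58 in bone marrow, with 4156 and 4236 in the other macrophages. For C1qc the Ly-6B+ mean of 22700 lay near the 29060 and 29820 of the other macrophages, and Alox15 was likewise near them at 26460, 31510 and 33570.

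**Figure D3:**
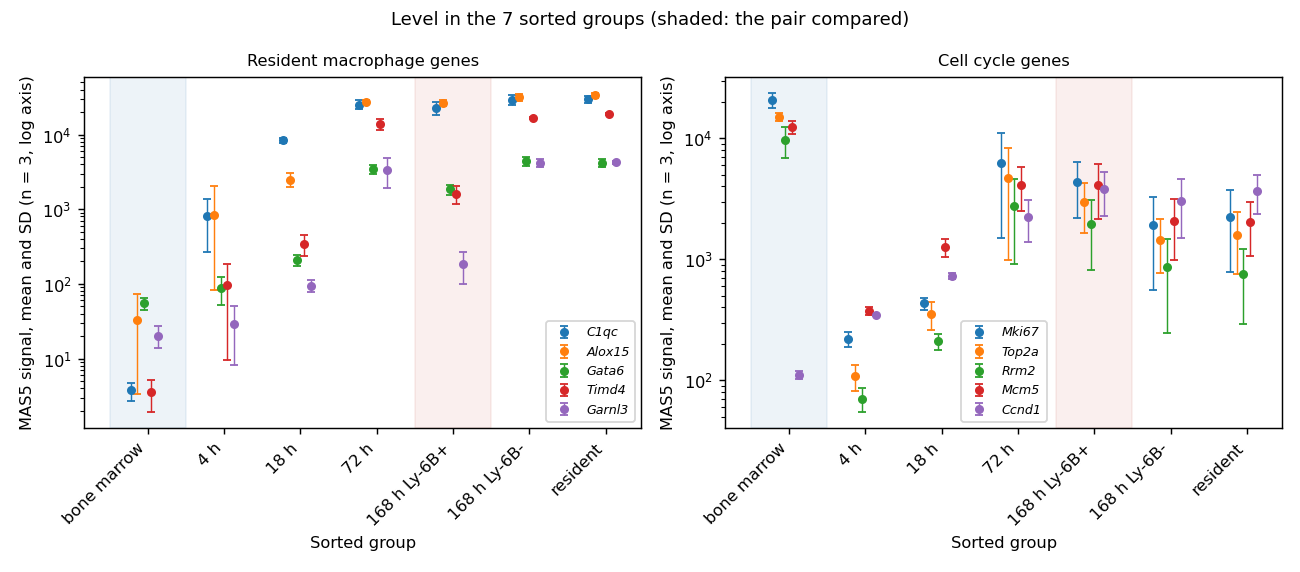
Mean MAS5 signal with SD (y axes, log scale, 3 arrays a group) in the 7 sorted groups for resident macrophage genes (left) and cell cycle genes (right), with the pair compared shaded. Lower bars are shortened where the SD is close to the mean or above it. C1qc and Alox15 of the Ly-6B+ macrophages are close to the other macrophages, Timd4 (1622) and Garnl3 (182.8) lie between bone marrow and the other macrophages, and the mitotic genes are highest in bone marrow, with Ccnd1 lowest there.

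Uptake of dying cells runs through bridging proteins, receptors and lipid exporters. Of 20 measured genes of this process 9 were called higher, 1 lower and 7 held, with a median of 0.82. The shares of all genes were 10.2%, 7.54% and 56.7%. The receptors Mertk and Axl, which bind phosphatidylserine through bridging proteins, differed strongly. Mertk was 5579, 4954 and 4806 against 72.6, 48.2 and 77.9 (6.00, SE 0.17, adjusted p = 3.28e-16), and Axl was 1281 ± 67.7 against 163 ± 35.2 (2.88). The bridge Pros1, protein S, rose by 3.18, whereas Gas6 was 103.6 ± 64.0 against 41.1 ± 23.5 and was not called. Cd36, a scavenger and fatty acid receptor, was 12050 ± 1330 against 71.8 ± 31.5 (7.17), and Stab1, stabilin-1, 1003 ± 148 against 47.3 ± 38.9 (4.24). Itgb3, the beta3 integrin chain, was the member called lower, at 57.1, 128.5 and 112.1 against 648.3, 476.8 and 642.2 (-2.45). The engulfment GTPase Rac1 and the integrin chain Itgav were held within 2-fold at 12590 against 13660 and 1468 against 1515.

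Scavenger, lectin and Fc receptors went both ways. Called higher were 10 of 23, lower 4 and held 5 (median 0.85), beside 10.2%, 7.54% and 56.7% of all genes. Marco, a scavenger receptor for bacteria and particles, was 4277, 8448 and 6865 against 5.79, 3.85 and 3.04 (8.36, SE 0.66, adjusted p = 2.66e-09). Msr1, the class A scavenger receptor, was 16700 ± 447 against 1702 ± 540, and the mannose receptor Mrc1 4688 ± 1460 against 373 ± 50.4. Clec4d, a C-type lectin that binds fungal wall sugars, rose by 4.45. Clec7a encodes dectin-1, the receptor for the glucan in zymosan, and it was lower in the macrophages at 5363, 5402 and 5794 against 15010, 13330 and 14030 (-1.35, SE 0.17, adjusted p = 1.36e-06). Clec4a2, an inhibitory lectin of myeloid cells, was also lower at 1103 ± 246 against 5790 ± 190 (-2.40). It was nonetheless higher than in the Ly-6B- macrophages by 3.04 (adjusted p = 7.78e-09) and than in the resident ones by 2.38 (adjusted p = 1.38e-07).

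Among eicosanoid genes 8 of 16 were called higher, 2 lower and 3 held (median 1.34), beside 10.2%, 7.54% and 56.7% of all genes. The leukotriene branch rose at its start and at the enzyme for cysteinyl leukotrienes. Alox5 was 3751 ± 319 against 547 ± 301 (2.87), and Ltc4s was 4193, 4882 and 5956 against 13.3, 33.8 and 27.0 (7.01, SE 0.39, adjusted p = 1.12e-11). Lta4h, which makes leukotriene B4, was lower at 3591, 3684 and 3081 against 8702, 6527 and 15340 (-1.47), a call lost at -0.75 with the mean of its probe sets. Alox5ap, the partner of 5-lipoxygenase, was held at 24170 ± 2260 against 23860 ± 1410. Hpgd, which inactivates prostaglandins, was lower at 249 ± 39.5 against 2154 ± 729 (-2.99).

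Presentation of antigen on MHC class II was a second group high in the Ly-6B+ cells. Of its 16 genes 9 were called higher and 1 lower (median 1.21), beside 10.2% and 7.54% of all genes. H2-Ab1 was 21250, 25380 and 28110 against 1014, 908.8 and 806.7 (4.75, SE 0.33, adjusted p = 3.28e-10). H2-Aa rose by 4.69, H2-Eb1 by 4.30 and the invariant chain Cd74 by 3.65. Ciita, the transactivator of these genes, was 374.2, 479.9 and 383.8 against 92.0, 54.9 and 61.2 (2.36, SE 0.22, adjusted p = 3.24e-08). Unlike the resident list, this one was also higher than in the Ly-6B- and the resident macrophages. Against the Ly-6B- cells 7 of 16 genes were called higher, where 1.54% of all genes were. Against the resident cells 7 were, where 1.98% of all genes were. H2-Ab1 had a mean of 7628 in the Ly-6B- and 4635 in the resident macrophages, and 24910 in the Ly-6B+ cells, the highest of the 7 groups. In the macrophages of 72 h H2-Ab1 was 14230, and H2-Aa was 28350 there beside 37130 in the Ly-6B+ cells. B cells also carry MHC class II, and the 8 B cell genes had medians of 0.98 against the Ly-6B- and 1.28 against the resident macrophages. Ms4a1, which encodes CD20, was 1120 in the Ly-6B+, 423.3 in the Ly-6B- and 306.9 in the resident cells and was not called (limma adjusted p = 0.318 and 0.132), and Ighm was 811.6, 273.2 and 178.1, called against the resident cells (2.16, adjusted p = 0.0338). The part of B cells in the MHC class II values was not tested. Of the costimulatory genes, Cd40 rose by 1.69, Cd86 was held at 1170 against 894.2, and Cd83 fell by 1.81 on the log2 scale. Cd80 rose by 1.16, a call lost under 3 of 19 alternatives.

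**Figure D4:**
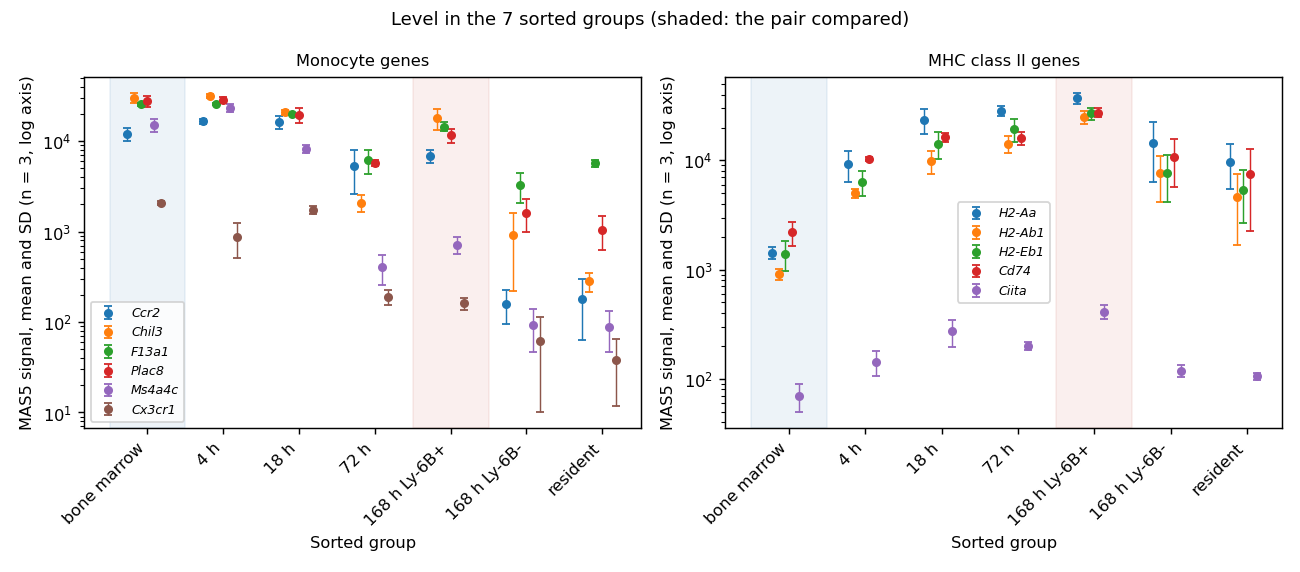
Mean MAS5 signal with SD (y axes, log scale, 3 arrays a group) in the 7 sorted groups for monocyte genes (left) and MHC class II genes (right), with the pair compared shaded. Lower bars are shortened where the SD is close to the mean or above it. Ccr2 and Chil3 of the Ly-6B+ macrophages (6848 and 17870) lie near bone marrow and above the other groups of 168 h and resident cells, Cx3cr1 (160.6) lies well below bone marrow, and the MHC class II genes are highest in the Ly-6B+ macrophages.

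Genes of alternative activation were called higher in 7 of 15 (median 0.81), beside 10.2% of all genes. Arg1, arginase, was 7986, 15940 and 8987 against 2.69, 5.44 and 1.59 (9.17, SE 0.31, adjusted p = 4.23e-15). Retnla, a secreted resistin-like protein, was 16580, 14740 and 26690 against 17.1, 32.1 and 53.0 (8.64, SE 0.32, adjusted p = 1.34e-14). Its mean in the Ly-6B+ macrophages, 19330 ± 6430, was the highest of the 7 groups. It lay within the spread of the 17690 ± 4540 at 18 h and the 14470 ± 5060 at 72 h. The folate receptor gene Folr2 rose by 4.18 and the haemoglobin scavenger Cd163 by 3.68. Il4ra, the receptor chain for interleukins 4 and 13, was held at 686.2 against 454.6. Against the Ly-6B- cells 5 of the 15 were called higher and against resident cells 4, Chil3, Mrc1, Retnla and Folr2 among them in each. Of all genes, 1.54% and 1.98% were called higher in these comparisons.

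Of the lipid handling genes 9 of 19 were called higher (median 0.94), beside 10.2% of all genes. Fabp4, a fatty acid carrier, was 4094 ± 899 against 43.3 ± 16.5 (6.15), the cholesterol exporter Abca1 5676 ± 510 against 199 ± 20.2 (4.73) and Apoe 28550 ± 1770 against 4177 ± 790 (2.78). Lpl, the lipase that frees fatty acids from lipoproteins, rose by 1.33. Plin2, which coats lipid droplets, rose by 1.02, a call lost under 3 of 19 alternatives. The nuclear receptor Pparg was near the bottom of the scale in both groups, at 30.1 and 52.5.

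Cytokine and chemokine genes were called higher in 13 of 24 and held in 5 (median 1.49), beside 10.2% and 56.7% of all genes. Cxcl1, a neutrophil attractant, was 19560, 24190 and 21740 against 338.5, 454.5 and 147.0 (6.18, SE 0.41, adjusted p = 1.66e-10), and Cxcl2 was 32490 ± 1770 against 8780 ± 2910 (1.94). Il6 was 1669, 1610 and 876.4 against 65.3, 94.4 and 148.3 (3.58), and Il10 was 135.4 ± 37.6 against 10.6 ± 6.47 (2.56). The inflammatory cytokines Il1b and Tnf were not called, with overlapping arrays. Il1b was 496.9 ± 151 against 789.3 ± 473, and Tnf 625.6 ± 223 against 862.5 ± 164. Il1a, by contrast, was called higher at 372.2, 578.3 and 129.4 against 4.4, 5.4 and 19.3, near the bottom of the scale in bone marrow. Ccl3 and Osm were held at 7355 against 8510 and 4706 against 4258. Egr1, an immediate-early transcription factor, and Hsph1, a heat shock protein, of the handling stress list were called higher, by 1.65 and 1.03, beside these cytokines, while Fos and Dusp1 were held at 23320 against 28290 and 29930 against 29270. The summed level of the 12 stress genes was 133400 to 145600 in the macrophages and 127400 to 192200 in bone marrow. Its part in the cytokine values was not tested. Leaving out each array in turn ended the calls of Egr1 and Hsph1 for some arrays, among them macrophage replicate 1 and bone marrow replicate 1.

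Growth factors and matrix genes were called higher in 12 of 22 and held in 6 (median 1.17), beside 10.2% and 56.7% of all genes. Ecm1, an extracellular matrix protein, was 15140, 15070 and 13560 against 208.7, 229.6 and 212.8 (5.98, SE 0.11, adjusted p = 1.5e-19). Timp2, an inhibitor of metalloproteinases, rose by 5.72, Igf1 by 5.22 and Tgfb2 by 5.08. Igf1 and Tgfb2 were lower than in the Ly-6B- macrophages by 1.82 and 3.21 on the log2 scale (-1.82, adjusted p = 0.0285, and -3.21, adjusted p = 8.18e-07). Pdgfb, a platelet-derived growth factor chain, was 426.4 ± 108 against 91.4 ± 31.2 (2.07). Mmp8, the collagenase of neutrophil granules, was the member called lower, at 40.6, 34.2 and 38.1 against 2958, 3498 and 1862 (-5.68).

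Receptors for chemoattractants and adhesion molecules split. Of 23 genes 9 were called higher, 4 lower and 7 held (median 0.44), beside 10.2%, 7.54% and 56.7% of all genes. Cxcr4, which retains cells in bone marrow, was 213.6, 111.4 and 123.2 against 3058, 3166 and 3962 (-4.42, SE 0.42, adjusted p = 3.25e-08). Ltb4r1, the leukotriene B4 receptor, was 251.0 ± 71.3 against 3215 ± 566 (-3.62), and the fractalkine receptor Cx3cr1 was 135.3, 161.8 and 184.7 against 2169, 1949 and 2101 (-3.58). Itgal, the alpha chain of LFA-1, fell by 2.41 on the log2 scale. Ltb4r1, Cx3cr1 and Itgal were still higher than in the Ly-6B- macrophages, by 2.92, 1.43 and 1.61 (adjusted p = 2.12e-07, 0.0259 and 5.46e-05). Higher in the macrophages than in bone marrow were Itga6, an integrin chain for laminin (4.59), Icam2 (3.97) and the chemokine receptor Ccr1 (2.25). Cd44 was held at 14630 against 12880 and Selplg, the ligand of P-selectin, at 16500 against 13840.

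Classical monocyte genes differed in both directions. Of 23 measured, 6 were called higher and 7 lower, where 10.2% and 7.54% of all genes were, with a median of -0.49. Held were 5 (21.7%), where 56.7% of all genes were. Of its 17 members with a mean of at least 1000 in both groups, 5 were held (29.4%), where 77.5% of all such genes were, and 1 of the 5, Fn1, was called higher with the mean of its probe sets. Ms4a4c, a membrane protein of monocytes, was 687.4, 879.1 and 574.8 against 16280, 16600 and 12330 (-4.38, SE 0.32, adjusted p = 7.25e-10). Emb, embigin, was 1325 ± 384 against 15620 ± 2290 (-3.58), Napsa, an aspartic protease, 1267 ± 161 against 10020 ± 1580 (-2.96) and Vcan, the matrix proteoglycan versican, 204.6 ± 59.5 against 1551 ± 566 (-2.81). F13a1, the A subunit of coagulation factor XIII, was 13080, 14050 and 16230 against 26790, 24370 and 25090 (-0.82, adjusted p = 0.00362), under the size of 1 that a call needs. Plac8 and the calcium-binding S100a4 fell by 1.26 and 1.16 on the log2 scale. Thbs1, thrombospondin-1, rose by 3.66 and Tmem176a, a membrane protein of myeloid cells, by 2.70, and Cd14, the co-receptor for lipopolysaccharide, by 1.94. Against the Ly-6B- and against the resident macrophages, 8 of the 23 were called higher, Ccr2, Chil3, Plac8, Napsa, Ms4a4c, F13a1 and Cx3cr1 among them in each. The shares of all genes called higher were 1.54% and 1.98%. Plac8 was 11560 in the Ly-6B+, 1622 in the Ly-6B- and 1052 in the resident macrophages.

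**Figure D5:**
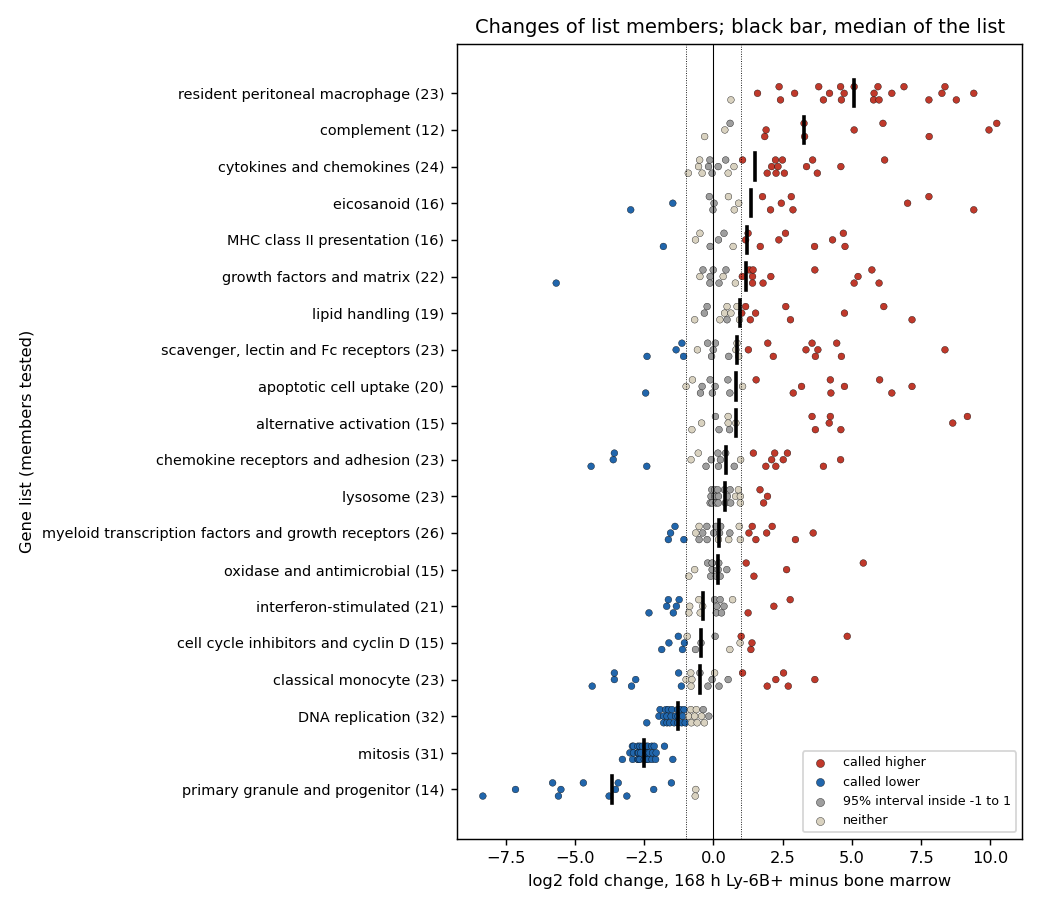
Change of each measured member (points) of 20 gene lists, as log2 fold change of 168 h Ly-6B+ macrophages minus bone marrow monocytes (x axis), with lists (y axis) ordered by their median (black bar). Red, called higher; blue, called lower; dark grey, held within 2-fold; light, neither. The medians run from 5.08 for resident macrophage genes to -3.65 for primary granule and progenitor genes, and the 31 mitosis genes all lie below -1.

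Of 23 lysosomal genes 16 (69.6%) were held within 2-fold and 3 called higher (median 0.40), beside 56.7% and 10.2% of all genes. Of the 17 with a mean of at least 1000 in both groups 13 (76.5%) were held, near the 77.5% of all such genes. Lamp1, a membrane protein of lysosomes, was 16560, 17610 and 18070 against 18580, 18130 and 17790 (-0.06, 95% interval -0.22 to 0.10). Npc2, a cholesterol carrier, and the protease Ctsc were held with intervals of -0.24 to 0.15 and -0.29 to 0.05, but other probe sets of Ctsc, which are dimmer, differed by 0.65 and 1.02. Cathepsin D (Ctsd) rose by 1.95, cathepsin L (Ctsl) by 1.81 and beta-galactosidase (Glb1) by 1.68. Oxidase and antimicrobial genes were held in 9 of 15 and called higher in 4 (median 0.17), beside 56.7% and 10.2% of all genes. Of the 12 with a mean of at least 1000 in both groups 8 were held, where 77.5% of all such genes were. The membrane subunits of the phagocyte oxidase, Cybb and Cyba, were 22570 ± 1640 against 20040 ± 1760 and 19620 ± 3320 against 18100 ± 735. Acod1, which makes itaconate, rose by 5.41, the metal transporter Slc11a1 by 2.64 and the heme oxygenase Hmox1 by 1.46.

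Transcription factors and growth receptors of the myeloid line were held in 9 of 26 (34.6%), where 56.7% of all genes were. They were called higher in 7 and lower in 4 (median 0.20), beside 10.2% and 7.54% of all genes. Of the 15 with a mean of at least 1000 in both groups 7 (46.7%) were held, where 77.5% of all such genes were. Spi1, which encodes the lineage factor PU.1, was 1252, 3065 and 1841 against 2276, 2686 and 1904 (-0.24, 95% interval -0.80 to 0.32), and the arrays overlapped. Klf2 was held at 17440 ± 4020 against 16620 ± 5260, and the receptor for granulocyte colony-stimulating factor, Csf3r, at 4644 against 3919. Maf, a factor of mature macrophages, was 6475, 5268 and 7569 against 521.7, 596.3 and 426.8 (3.60, SE 0.16, adjusted p = 3.84e-13), and Bhlhe40 rose by 2.96, Myc by 2.12 and Irf4 by 1.53. Irf8, a factor of monocyte and dendritic cell development, was 4573, 6779 and 5078 against 17970, 16070 and 13790 (-1.55). Klf4, which promotes monocyte differentiation, fell by 1.07 on the log2 scale to 12280 ± 1500, and Cebpd fell by 1.39.

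Held values at bright signals depend on the probe set. The fit used the brightest probe set of each gene. Of 242 held genes with a mean of at least 10000 in both groups, 177 had another measured probe set, and in 32 of them (18.1%) another one differed by at least 1 in size. Among the other held genes this was so for 277 of 3483 (8.0%). Fn1, fibronectin, was held at 29290 against 25390 on the brightest probe set and was 11500 against 1904 on another, a difference of 2.60, and it was called higher at 1.40 with the mean of its probe sets. Csf1r, the receptor for macrophage colony-stimulating factor, was held at 0.22 and differed by 0.79 and 1.30 on its other probe sets. Cathepsin B (Ctsb) was held at 0.60, with 1.19 to 2.75 on its other probe sets. Cd44 (0.17 and -0.05), Cybb (0.32 and 0.21) and Tgfbi, a matrix protein (-0.15 to -0.66), stayed within 2-fold on theirs. Lyz2, Ctss, Alox5ap, Lamp1 and Spi1 were measured with 1 probe set, and Lyz2 is a near-identical copy of Lyz1, so that probes may read both. Whether signals near the top of the scale were compressed was not tested.

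Interferon-stimulated genes were called lower in 6 of 21, higher in 3 and held in 6 (median -0.39), beside 7.54%, 10.2% and 56.7% of all genes. Ifit2 was 243.9, 448.8 and 227.2 against 1251, 1833 and 1575 (-2.33, SE 0.48, adjusted p = 0.000523), and the antiviral Rsad2 and Mx1 were lower by 1.69 and 1.45 on the log2 scale (-1.69 and -1.45). The guanylate-binding proteins went the other way, with Gbp2 at 8019 ± 902 against 1215 ± 468 (2.77) and Gbp3 at 2.18. Ifitm3 was held at 30490 against 25710.

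Mitotic genes were lower throughout. All 31 measured members were called lower, where 7.54% of all genes were. Their changes lay between -1.47 for Kif23 and -3.29 for Tpx2, with a median of -2.50. Mki67, a protein of dividing cells, was 6753, 3178 and 3019 in the macrophages against 20870, 17560 and 23530 in bone marrow (-2.35, SE 0.54, adjusted p = 0.00152). Top2a, topoisomerase II alpha, was 4436, 2355 and 2066 against 15740, 13770 and 15710 (-2.43). Tpx2, a spindle assembly factor, was 594.1, 382.7 and 261.7 against 3795, 3425 and 4740 (-3.29). Macrophage replicate 1 had the highest of the 3 macrophage signals for each of these genes, still below every bone marrow array. The macrophages were not without these transcripts. Mki67 had a mean of 4317 in them, with 1922 in the Ly-6B- and 2249 in the resident macrophages. These differences of 1.27 and 1.14 were not called (limma adjusted p = 0.175 and 0.225). Its mean was 6229 ± 4730 in the macrophages of 72 h and 220.8 in monocytes of the cavity at 4 h.

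DNA replication genes were called lower in 22 of 32 and held in 2 (median -1.28), beside 7.54% and 56.7% of all genes. The count of lower calls ran from 15 to 25 over the alternatives. Rrm2, a subunit of ribonucleotide reductase, was 3269, 1368 and 1222 against 8718, 7499 and 12860 (-2.41, SE 0.54, adjusted p = 0.00114). Mcm5, part of the replicative helicase, was 6371, 3506 and 2530 against 13850, 10880 and 12350 (-1.68), and Pcna, the sliding clamp, was 8305 ± 1130 against 18290 ± 779 (-1.15). E2f1, a transcription factor of S-phase genes, was held at 410.1 ± 72.8 against 460.8 ± 43.7, and Prim2, a primase subunit, at 946.1 against 1186. The calls of Lig1 and Pole, a ligase and a polymerase of replication, were lost under 5 and 6 of 19 alternatives, among them those without macrophage replicate 2 or 3 and without bone marrow replicate 1 or 3.

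Regulators of the cell cycle moved in both directions. Of 15 measured, 4 were called higher, 5 lower and 3 held (median -0.45), beside 10.2%, 7.54% and 56.7% of all genes. Ccnd1, the cyclin that carries growth signals into the cycle, was 4694, 4604 and 2067 against 116.9, 100.3 and 114.0 (4.83, SE 0.34, adjusted p = 4.04e-10). Ccnd2 rose by 1.35, and Ccnd3 fell by 1.12 on the log2 scale. With the mean of the probe sets both calls were lost, at 0.93 for Ccnd2 and -0.76 for Ccnd3. That of Ccnd2 was also lost without bone marrow replicate 2 (0.94) and that of Ccnd3 without macrophage replicate 3, where the change lay at the threshold. The inhibitors of cyclin D kinases Cdkn2c and Cdkn2d fell by 1.87 and 1.61. The inhibitor Cdkn1a was 9361 ± 1690 against 4646 ± 659 (1.00), a call lost under 6 of 19 alternatives.

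Promoters of cell cycle genes carry short motifs known from the factors that time them, and the stretches below are shown because most measured genes of both cell cycle lists were called lower. Sequences are RefSeq promoters of the mouse build GRCm38.p6, the 150 bases before the start of the gene, 5′ to 3′ on the gene's strand. Capitals mark matches on either strand to TTTGGCGC, TTTCGCGC, TTTCCCGC or TTTGCCGC (E2F), to TTTGAA or TTCGAA (the cell cycle homology region, CHR) and to CCAAT, the box bound by NF-Y. The first 3 are the mitosis genes with the largest falls that hold both a CHR and a CCAAT match in this stretch. The last are the replication genes with the largest falls that hold an E2F match. Promoters of a single chromosome were left out of this choice.
Kif11, chr19:37376232-37376381, plus strand: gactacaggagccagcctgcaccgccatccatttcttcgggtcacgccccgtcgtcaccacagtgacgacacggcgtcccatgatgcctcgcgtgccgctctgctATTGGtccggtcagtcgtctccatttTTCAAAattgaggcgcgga
Ube2c, chr2:164769779-164769928, plus strand: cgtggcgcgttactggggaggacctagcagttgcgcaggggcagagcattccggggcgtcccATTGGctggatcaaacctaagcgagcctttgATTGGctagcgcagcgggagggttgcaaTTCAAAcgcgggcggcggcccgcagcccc
Cdc20, chr4:118437344-118437493, minus strand: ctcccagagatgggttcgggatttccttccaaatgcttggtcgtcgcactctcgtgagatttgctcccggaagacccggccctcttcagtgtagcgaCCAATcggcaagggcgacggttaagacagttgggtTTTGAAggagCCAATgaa
Mcm5, chr8:75109359-75109508, plus strand: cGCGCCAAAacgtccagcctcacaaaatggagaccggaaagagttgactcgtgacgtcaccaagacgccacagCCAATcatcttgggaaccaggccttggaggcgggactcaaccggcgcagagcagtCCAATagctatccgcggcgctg
Cdc6, chr11:98908001-98908150, plus strand: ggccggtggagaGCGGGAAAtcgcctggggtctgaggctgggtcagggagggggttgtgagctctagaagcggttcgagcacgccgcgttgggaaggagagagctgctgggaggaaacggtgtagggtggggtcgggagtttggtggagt

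The CHR match of Kif11, a spindle motor, begins 19 bases before the start, with a CCAAT match at 45. In Ube2c, which works with the anaphase-promoting complex, the CHR match lies at 29 and CCAAT at 88 and 57, and in Cdc20, an activator of that complex, they lie at 18, 53 and 8. The E2F match lies at 149 in Mcm5 and at 138 in Cdc6, a loader of the helicase. The signals of these genes were 380.2 ± 202 against 2967 ± 325 for Kif11, 536.4 ± 211 against 3950 ± 91.1 for Ube2c and 1586 ± 770 against 11190 ± 2020 for Cdc20. Mcm5 was 4136 ± 2000 against 12360 ± 1490 and Cdc6 704.9 ± 320 against 2089 ± 356. In the 250 bases before the start, 39.3% of 28 mitosis promoters and 16.1% of 31 replication promoters held a CHR match, where 17.1% of all 32851 promoters did. An E2F match was in 3.6% of the mitosis, 22.6% of the replication and 1.9% of all promoters, and CCAAT in 71.4%, 51.6% and 33.8%. Genes with several promoters count more than once, the shares are descriptions with no test, and a match is not a measured site.

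Genes of primary granules and progenitors were called lower in 12 of 14 (median -3.65), where 7.54% of all genes were. Gfi1 and Cd34 of the 12 passed the filter on low signals only through the bone marrow arrays. Their lower calls are not independent of that filter. Mpo was 55.8, 35.8 and 51.5 in the macrophages against 19600, 12010 and 33880 (-8.33, SE 0.35, adjusted p = 1.13e-13). The serine proteases of the same granules, Ctsg and Elane, were 73.3 ± 60.3 against 11380 ± 5400 (-7.15) and 71.5 ± 20.9 against 5165 ± 2810 (-5.81). Myb, a transcription factor of progenitors, was 62.8, 30.5 and 45.7 against 2554, 1589 and 5917 (-5.60). Prtn3, proteinase 3 of the same granules, did not follow them, with 9395, 9387 and 8089 against 12810, 10130 and 21050 (-0.64, adjusted p = 0.0199), and means of 6663 in the Ly-6B- and 7486 in the resident macrophages. Without bone marrow replicate 3, Mpo changed by -7.95, Ctsg by -6.79, Elane by -5.39 and Myb by -5.08, and 9 genes of the list were called lower. Gfi1 and Cd34 were then no longer tested, and the call of Kit was lost at -1.45.

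Met, the receptor for hepatocyte growth factor, stood out among the genes of bone marrow monocytes, with 4600, 4103 and 3935 against 47.6, 34.5 and 5.52 in the macrophages (-6.72, SE 0.28, adjusted p = 1.03e-13). Its mean was 4042 in the monocytes of the cavity at 4 h and 281.4 at 18 h. Klrb1f, a lectin-like receptor, was 34.9 ± 24.8 against 2784 ± 458 (-5.90).

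Most markers of neutrophils moved with the granule genes, although the bone marrow gate was Ly-6G-. Of 15 neutrophil genes 10 were called lower and 3 higher, beside 7.54% and 10.2% of all genes. Their summed signal was 25070 to 29480 in the macrophages and 71570 to 216100 in bone marrow. Csf3r was held at 4644 against 3919. Cxcr2 was not called, at 19.4, 28.9 and 16.8 against 16.6, 28.1 and 96.1. Chil1 of the 10 passed the filter only through the bone marrow arrays. Camp, cathelicidin, was 168.1, 12.5 and 16.04 against 11230, 5844 and 31720 (-7.89, SE 0.62, adjusted p = 2.39e-09). S100a9 was 76.0, 57.4 and 52.1 against 8538, 5796 and 39150 (-7.36), and S100a8, which monocytes make too, 581.8 ± 135 against 31510 ± 10800 (-5.69). The secondary granule genes Ngp and Ltf changed by -7.25 and -6.80, and Lcn2 by -4.93. Lrg1, Padi4 and Mmp9 of this list were higher in the macrophages, by 4.19, 4.07 and 1.79. Without bone marrow replicate 3, S100a9 changed by -6.53, Camp by -7.24 and Ltf by -5.99. The part of other cells in the granule, progenitor and cell cycle values was not tested.

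Other cell types were followed in the same way. B cell genes had a summed signal of 2499 to 4074 against 11270 to 16510, of which Ighm, the heavy chain of IgM, was 811.6 against 13110, while Ms4a1 was higher in the macrophages at 1120 against 183.3. Cd79a and Cd79b, the signalling chains of the B cell receptor, were not called, at 234.0 against 92.0 and 449.9 against 423.5. The plasma cell genes Igha and Jchain were lower by 6.20 and 6.06 on the log2 scale (-6.20 and -6.06). Jchain passed the filter on low signals only through the bone marrow arrays, so its lower call is not independent of the filter. Among mast cell genes Cpa3 and Cma1 were called higher at 480.9 against 122.6 and 329.1 against 72.7, and Hdc lower. The call of Cpa3 was lost under 10 of the 18 alternatives that gave it a value, each of the 6 replicates left out among them, and without bone marrow replicate 3 the change of Hdc was -0.75 in place of -1.84 and that of Cma1 1.76 (limma adjusted p = 0.0561), so that none of the 3 calls was left. Pf4, a chemokine of platelets that macrophages can make, was 18810 against 611.1, while the platelet gene Gp9 was not above 19.9 in any of the 6 arrays. Ppbp, another platelet chemokine, was 42.3, 36.6 and 60.04 against 278.3, 31.8 and 659.4, with overlapping arrays, and its lower call was lost under 5 of 16 alternatives, among them those without macrophage replicate 1 or 2 and without bone marrow replicate 1 or 3 (-0.95 without the last). Dendritic cell genes were called lower in 3 of 8 and higher in 1, beside 7.54% and 10.2% of all genes. Their summed signal was 3916 to 4254 against 5903 to 8915. The most abundant of them, Naaa, was 3260 against 6573. Eosinophil genes summed to 6.35 to 44.8 against 114.7 to 617.3 over Prg2, the 1 gene tested. Prg2 too passed the filter only through the bone marrow arrays. Erythroid genes summed to 124.2 to 271.9 against 463.0 to 580.6, with Slc4a1 and Car1 called lower of 4. Without any 1 of the bone marrow arrays, neither of these passed the filter on low signals, so no test was made. T and NK cell genes summed to 378.2 to 400.9 against 256.5 to 279.7 and were not called. Genes of mesothelial cells or fibroblasts summed to 196.3 to 308.9 against 125.4 to 312.4, with Col1a2 and Krt8 held. The part of these cells in the results was not tested.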

How the data were processed

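RNA (100 ng a sample, 2 rounds of amplification per the labels) was hybridised to Affymetrix arrays. The authors deposited linear MAS5 intensity values, computed with Affymetrix Expression Console 1.2 per the submitters' processing notes. The trimmed mean (2% at each end) was 500.0 in each of the 21 arrays. Of 45101 probe sets, 34958 had 1 gene symbol, 932 several and 9211 none, and the last 2 kinds were left out. For each of 18194 genes the brightest probe set on average was used. A gene entered the tests (12169 did) if 3 or more arrays exceeded a signal of 80.6, which is the median value deposited.

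Signals were taken as log2(signal + 15) and fitted in R 4.3.3 with limma 3.58.1 (lmFit, eBayes with a trend) over 21 arrays in 7 groups, which left 14 residual degrees of freedom. Tests were 2-sided and adjusted over all genes tested. The number of arrays limits the precision. The 30 gene lists hold 559 entries, 42 of them without a probe set of that gene alone, and genes in several lists count in each.

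Genes were named by a rule: the 12 largest changes in each direction whose arrays do not overlap, the 2 largest called and 2 most abundant held members of each list, the markers and the gate genes. Prtn3, Il1b, Tnf, Ccnd2, Ccnd3 and other members beyond the rule were chosen after their values were seen. The members, lists and tests were chosen with earlier results of these data known. Of 32851 RefSeq promoters, those of 27 mitosis and 26 replication genes matched by symbol. Same-numbered arrays of the groups deviated together at r of 0.09, 0.18 and 0.06, yet 6 of 6 arrays correlated best with that of their own number. The labels do not say that equal numbers belong together, and the main fit did not take them as pairs. Counts with the replicate block are given below.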

Additional observations from a re-analysis of the deposited data

How the results depend on the processing

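The results were recomputed under 18 listed alternatives and 1 added after seeing the data, the 6 arrays with the replicate block. They covered pseudocounts of 1 and 60, normalization, filters, probe sets, the fit, the arrays used and each replicate left out. Over them 881 to 1325 genes were called higher, 669 to 1021 lower and 5100 to 8808 held. With a replicate left out, 1215 to 1248 were higher, 835 to 981 lower and 6366 to 6461 held. The replicate block gave 1248 higher, 924 lower and 7137 held, moving no count by over 1.5 times, and 6 of 6 arrays correlated best with the array of their own number, a hint from the data and not the design. Quantile normalization gave 1115 higher and 1021 lower. Of 444 genes followed, 375 kept their call under every alternative that measured them, and no called change reversed. Averaging all probe sets of each gene called 1039 higher and 744 lower. The mitosis list had 31 and the resident list 22 calls under each alternative. The primary granule list had 7 to 12 lower calls, and the cell cycle regulators 2 to 6. Of 1140 list counts, 61 moved by over 1.5 times. Signals near the bottom of the scale have folds set by the pseudocount.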

Other observations

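Some genes outside the lists lay close in Ly-6B+ macrophages and bone marrow monocytes but apart from the other macrophages, and they were picked after their values were seen. Jarid2, a chromatin regulator, was 3575 ± 122 in the Ly-6B+ macrophages and 4555 ± 316 in bone marrow (95% interval -0.74 to 0.05). It was higher than in the Ly-6B- macrophages by 1.61 and than in resident ones by 1.63 (limma on the same Ly-6B+ arrays). Hmgn3, a nucleosome-binding protein, was 513.6 ± 115 and 724.8 ± 73.3, and 2.25 and 2.16 higher than in the other macrophages. Tmem154, a membrane protein, was 538.1 ± 84.4 and 517.8 ± 167, and 2.55 and 2.11 higher. Socs6, of the family of cytokine signalling suppressors, was 1992 ± 374 and 1765 ± 339, and 1.33 and 1.30 higher. Nr4a2, a nuclear receptor, was 883.2 ± 153 and 830.5 ± 227, and 1.15 and 1.5 higher.

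Others lay at a level between bone marrow and the other macrophages. Coro1a, which organises actin in leukocytes, was 4675 in the Ly-6B+ macrophages and 27980 in bone marrow (-2.58), and 2.86 and 2.91 higher than in Ly-6B- and resident macrophages. Ms4a6b was 1907 against 12500 (-2.72), and 1.82 and 1.97 higher. Gsn, gelsolin, which cuts actin filaments, was 345.5 against 5169 (-3.94), and 2.06 and 2.10 higher.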
